A study of Homo sapiens with 8 samples.

Results

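Molecular chaperones of the HSP70, HSP90 and HSP60 families were followed through SF3b inhibition in 10 genes chosen by name, namely HSPA4, HSPA5, HSPA8, HSPA9, HSPH1, HSP90AA1, HSP90AB1, HSP90B1, HSPD1 and HSPE1. All rows of the deposited intron tables carrying one of these symbols were taken. They gave 103 introns of 9 genes, out of 142206 introns of 15902 genes, and HSPE1 had no row. The cells were SUM159, an established human line of triple-negative breast cancer. They were exposed for 12 h to H3B-8800, an inhibitor of the spliceosome that targets SF3b, or to the solvent DMSO, called vehicle here. Polyadenylated RNA was sequenced with a stranded kit either as input or after recovery with J2, an antibody to double-stranded RNA. Both kinds of RNA were taken from vehicle and from drug cells, which makes 4 groups of 2 libraries, described as biological duplicates. No library recovered with a control antibody was among the samples. Differences between J2 and input RNA therefore include whatever the recovery step does to RNA that is not double-stranded. All groups share one cell line, and whether the duplicates were separate cultures is not given in the sources used here.

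HSP70 proteins bind exposed hydrophobic stretches of unfolded proteins in cycles of ATP hydrolysis, helped by J-domain proteins and by nucleotide exchange factors. HSP90 dimers act later, on kinases, receptors and other clients that are close to their folded state. HSP60 with its lid HSP10 forms a closed folding chamber in mitochondria. Each compartment has its own set of chaperones, and cancer cells commonly express them at high levels. SF3b recognises the branch site upstream of the 3′ end of an intron, and its inhibition can leave introns in the RNA or join other sites.

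The deposited tables give 2 counts for each intron. Intronic reads lie in the intron, and spliced reads join the exons on both of its sides. Levels are spliced or intronic reads per 1000000 reads (RPM) of the library depth used by the authors, which ran from 47000000 to 57000000 reads. The listed introns held between 11027832 and 14060879 spliced reads a library. Of the intronic and spliced reads together, 3.82% ± 0.01 (SD, n = 2) were intronic in input with vehicle and 11.6% ± 2.0 in input with drug. In J2 RNA the same share was 3.80% ± 0.25 with vehicle and 12.7% ± 0.3 with drug. The cell line label was checked on input with vehicle. Of 6 mesenchymal markers 5 exceeded 1 RPM, with VIM at 464 RPM ± 7.8, while CDH1, EPCAM and ERBB3 were at or below 0.031 RPM and ESR1 was at 0. These are 4 of 6 luminal markers, and the other 2 exceeded 1 RPM, with KRT18, a keratin, at 124 RPM ± 12 and GATA3, a transcription factor, at 2.24 RPM ± 0.14. The 3 listed immune markers of 4 did not exceed 0.13 RPM.

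The 3′ ends of introns are shown first, because SF3b acts there and because 3 introns of HSPA9 carried most of the chaperone genes' intronic reads with drug. The last 60 bases of 8 introns are printed 5′ to 3′ on the strand of the gene, with the closing AG in capitals. They were read from GENCODE 29 transcripts that keep the intron, on GRCh38. The first 3 gained intronic reads with drug. HSPD1 intron 7 had a higher intronic share with drug in input RNA through fewer spliced reads. The other 4 had from 0 to 8 intronic reads over all 8 libraries. These introns were chosen after their values were seen.
HSPA9 intron 10, chr5:138560092-138561579: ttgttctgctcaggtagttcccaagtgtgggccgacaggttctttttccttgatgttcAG
HSPA9 intron 11, chr5:138558658-138559863: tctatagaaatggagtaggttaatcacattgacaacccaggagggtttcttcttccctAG
HSPA9 intron 14, chr5:138556867-138557401: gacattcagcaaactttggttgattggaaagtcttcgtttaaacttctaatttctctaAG
HSPD1 intron 7, chr2:197490297-197493323: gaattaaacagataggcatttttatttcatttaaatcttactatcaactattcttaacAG
HSPD1 intron 2, chr2:197497393-197498674: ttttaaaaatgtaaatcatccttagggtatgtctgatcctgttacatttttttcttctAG
HSP90AA1 intron 3, chr14:102086125-102086216: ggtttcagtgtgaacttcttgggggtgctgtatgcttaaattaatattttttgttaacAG
HSP90B1 intron 12, chr12:103942797-103943073: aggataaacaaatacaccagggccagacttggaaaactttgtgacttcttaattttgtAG
HSP90B1 intron 13, chr12:103943320-103943737: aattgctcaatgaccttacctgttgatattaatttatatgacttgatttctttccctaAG
Pyrimidines were counted in the 20 bases before the AG, after leaving out the base directly next to it. They made up 65.0% to 75.0% in the 4 introns listed first. In the 4 listed last they made up 85.0%, 55.0%, 70.0% and 75.0%. The ranges overlap, and this feature does not separate the kinds among the introns shown. Intron 5 of HSPD1, the one with the fewest spliced reads of that gene in J2 RNA with vehicle, begins with GC in place of GT (GCaagtgtgt, its first 10 bases, with the opening dinucleotide in capitals).

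With vehicle, HSPA5, HSP90B1 and HSPA9 led in spliced reads. Per listed intron, HSPA5, the HSP70 of the endoplasmic reticulum also known as BiP, had 25.8 RPM ± 0.6 (SD, n = 2) in input RNA. HSP90B1, the HSP90 of the same compartment (GRP94), had 6.26 RPM ± 0.07, and HSPA9, the mitochondrial HSP70 (mortalin), had 5.20 RPM ± 0.03. HSP90AB1, the constitutive cytosolic HSP90, followed with 3.79 RPM ± 0.11, and HSPD1, mitochondrial HSP60, with 2.48 RPM ± 0.12. HSP90AA1, the stress-inducible cytosolic HSP90, had 1.17 RPM ± 0.02 and HSPA4, a cytosolic exchange factor of the HSP110 class, 1.16 RPM ± 0.05. HSPA8, the constitutive cytosolic HSP70, and HSPH1, HSP110, were lowest, with 0.541 RPM ± 0.122 and 0.540 RPM ± 0.043. HSP90AA1 and HSPA4 did not differ beyond their spread, nor did HSPA8 and HSPH1. Intron 1 alone held 100 of the 181 RPM of HSPA5 and 35.1 of the 106 RPM of HSP90B1, so their means per intron lean on it. The place of HSPA8 is uncertain, since GENCODE 29 names 17 pseudogenes after it, and reads shared with such copies could be lost. The same holds for HSPD1, with 17 pseudogenes, HSP90AB1 with 5 and HSP90AA1 with 4. The handling of reads with several matches is not given in the sources used here, and the part of these copies in any level was not tested.

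**Figure D1:**
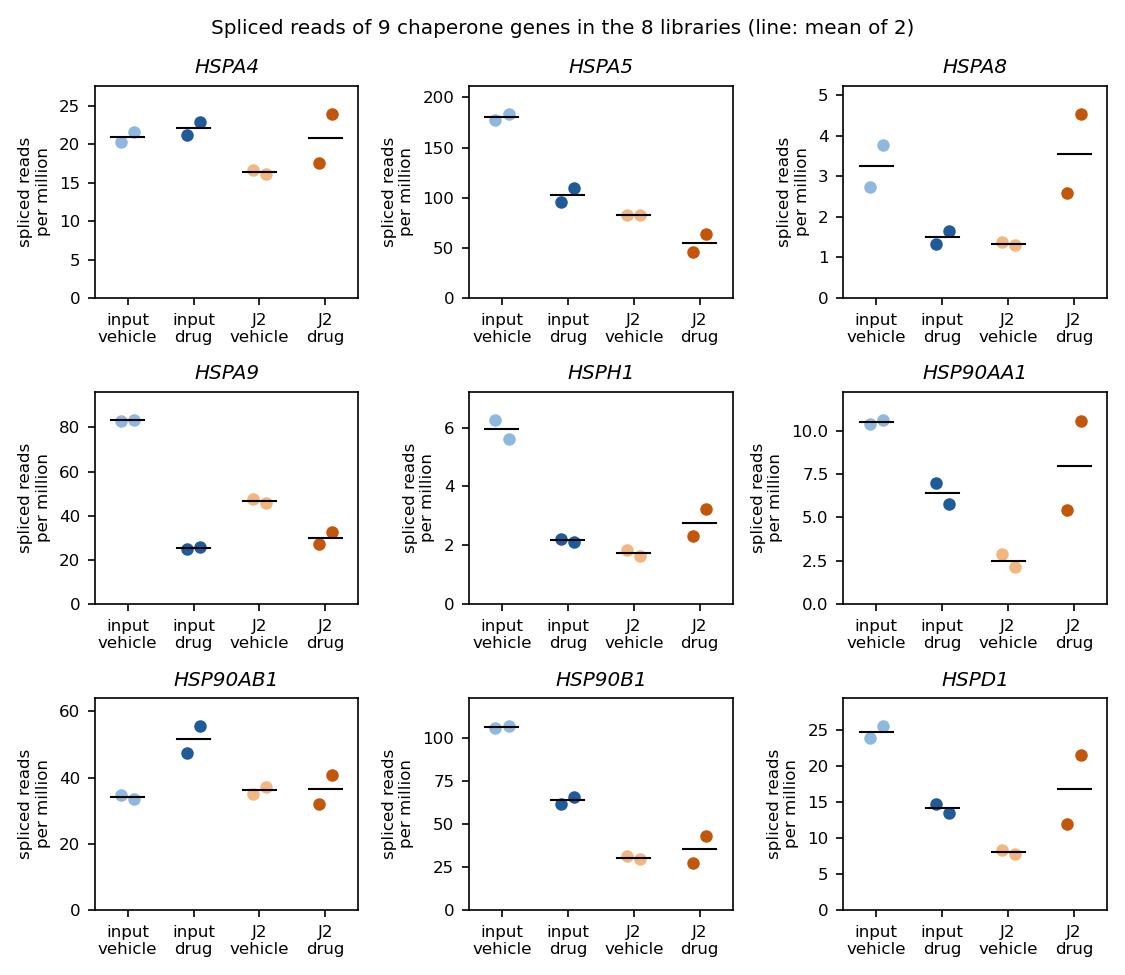
Spliced reads in RPM (vertical axes, each from 0) of 9 chaperone genes in each of the 8 libraries, by group; points are libraries and lines are means of 2. In J2 RNA with drug the 2 libraries lie farthest apart, relative to their mean, for HSP90AA1, at 5.44 and 10.5 RPM.

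In input RNA the drug lowered spliced reads of 7 of the 9 genes and raised those of HSP90AB1. Each group pair was compared with edgeR's quasi-likelihood test over 8461 genes, and a gene is said to have risen or fallen where its Benjamini-Hochberg adjusted p was under 0.05. The background of this comparison is broad, as 48.5% of all genes tested fell and 21.7% rose. The median change was -0.81 on the log2 scale for the 9 chaperone genes and -0.38 for all genes tested.

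HSPA9 fell most. Its spliced reads were 82.9 and 83.5 RPM with vehicle and 24.8 and 25.9 RPM with drug, a log2 change of -1.71 ± 0.08 (SE, edgeR adjusted p = 3.32e-08). HSPH1, an exchange factor for cytosolic HSP70, went from 6.27 and 5.61 RPM to 2.21 and 2.12 RPM, which is -1.45 ± 0.20 (edgeR adjusted p = 8.61e-05). In both genes the drug and vehicle libraries lie far apart. HSPA5 went from 178 and 184 RPM to 95.8 and 110 RPM, or -0.81 ± 0.14 (edgeR adjusted p = 0.00068). HSP90B1 went from 106 and 107 RPM to 61.9 and 65.9 RPM, or -0.74 ± 0.17 (edgeR adjusted p = 0.00503). Summed over their introns, these partners in the endoplasmic reticulum thus fell by similar amounts. Intron by intron, the median change was -1.94 in HSP90B1 and -0.87 in HSPA5. HSPD1 went from 23.9 and 25.6 RPM to 14.7 and 13.5 RPM (-0.81 ± 0.22, edgeR adjusted p = 0.0108). HSPA8 fell from 2.73 and 3.76 RPM to 1.34 and 1.65 RPM (-1.12 ± 0.29, edgeR adjusted p = 0.00618). The call for HSPA8 was lost without input vehicle replicate 2 (-0.87) or without input drug replicate 1 (-0.98). That for HSPD1 was lost without input drug replicate 2 (-0.75). With median-of-ratios scaling the value for HSPD1 was -0.40 and missed the threshold (adjusted p = 0.095).

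The cytosolic HSP90 pair moved in opposite directions. HSP90AB1 rose from 34.8 and 33.5 RPM to 47.5 and 55.7 RPM, a log2 change of 0.60 ± 0.11 (edgeR adjusted p = 0.00102). HSP90AA1 went from 10.4 and 10.6 RPM to 6.98 and 5.77 RPM, or -0.72 ± 0.28 (edgeR adjusted p = 0.0422). The call for HSP90AA1 is weak, as the adjusted p was 0.156 with TMM scaling, 0.294 with median-of-ratios scaling and between 0.082 and 0.196 with 1 of the input libraries left out. HSPA4 had 20.2 and 21.6 RPM with vehicle and 21.2 and 22.9 RPM with drug (0.08 ± 0.13, edgeR adjusted p = 0.607). Its value depends on the scaling: it was called higher, by 0.36 with TMM scaling and by 0.49 with median-of-ratios scaling. These scalings moved the median of all genes from -0.38 to -0.09 and to 0.03, and the counts for all genes became 2737 higher and 3271 lower, and 3173 higher and 2912 lower. Of the 9 chaperone genes, 6 were called lower with TMM scaling and 5 with median-of-ratios scaling. Relative to that median HSPA4 and HSP90AB1 lay above it, and the 7 called lower lay below it, under each of the 3 scalings.

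**Figure D2:**
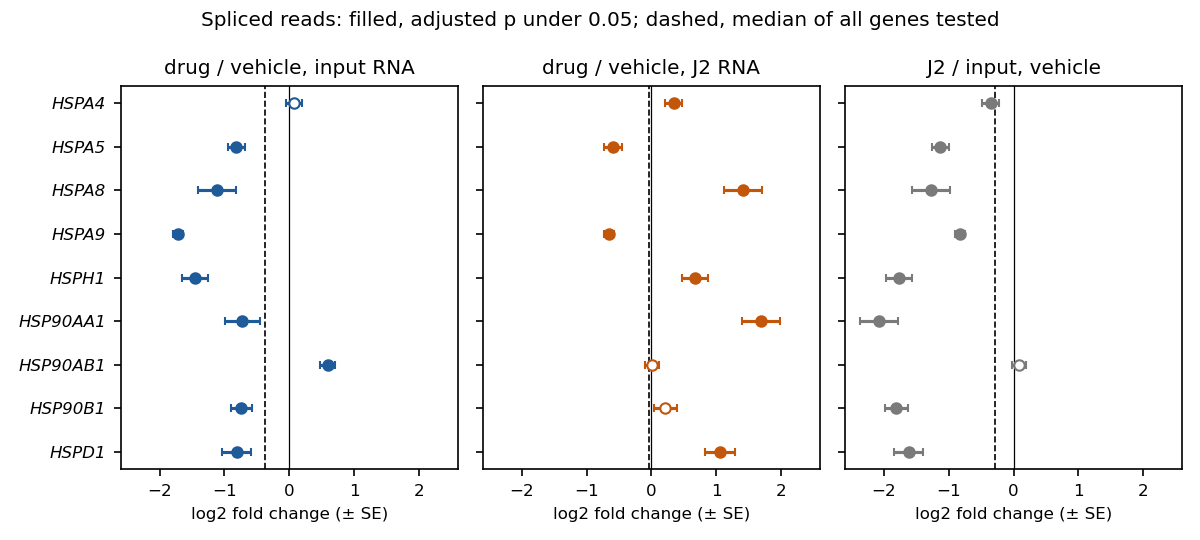
Log2 fold change of spliced reads (horizontal axes, bars ± SE) of the 9 genes for drug against vehicle in input RNA, for drug against vehicle in J2 RNA and for J2 against input RNA with vehicle. Filled points passed an adjusted p of 0.05 and the dashed line is the median of all 8461 genes tested; HSP90AA1, HSPA8, HSPD1 and HSPH1 lie left of 0 in the first panel and right of it in the second.

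In J2 RNA the drug effect took another form, with 5 of the 9 genes higher and 2 lower. Over all genes, 34.6% were called higher and 39.4% lower, and the median log2 change was -0.03. HSP90AA1 went from 2.87 and 2.11 RPM with vehicle to 5.44 and 10.5 RPM with drug, a log2 change of 1.69 ± 0.30 (edgeR adjusted p = 0.000745). HSPA8 went from 1.38 and 1.30 RPM to 2.58 and 4.55 RPM, which is 1.41 ± 0.29 (edgeR adjusted p = 0.00137). HSPD1 went from 8.32 and 7.77 RPM to 12.0 and 21.5 RPM, or 1.06 ± 0.23 (edgeR adjusted p = 0.00292). In these 3 genes the drug libraries differed much from each other. HSPH1, at 0.67 ± 0.21, and HSPA4, at 0.34 ± 0.13, were called higher with adjusted p of 0.0127 and 0.0316 by edgeR. Without J2 drug replicate 2 these became 0.40 (adjusted p = 0.087) and 0.10 (0.36). Both calls were also lost without J2 vehicle replicate 2 (0.083 and 0.135), and that for HSPA4 without J2 vehicle replicate 1 (0.088). HSPA9 fell from 47.7 and 46.0 RPM to 27.0 and 32.5 RPM (-0.65 ± 0.08, edgeR adjusted p = 3.71e-05), and HSPA5 from 82.4 and 82.9 RPM to 45.5 and 63.9 RPM (-0.59 ± 0.14, edgeR adjusted p = 0.004). HSP90B1 (0.22 ± 0.17) and HSP90AB1 (0.01 ± 0.11) did not pass, with edgeR adjusted p of 0.284 and 0.941. These 2 sums join introns that moved in both directions. HSPH1 was also called on a sum. Of its 11 listed introns only 1 had a mean of at least 20 reads, and that one was called lower (-0.78).

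In these comparisons the 2 libraries of J2 RNA with drug differed, with replicate 2 the higher one. All 9 genes had more spliced RPM in J2 drug replicate 2 than in replicate 1, with ratios from 1.20 to 1.94, while 61.0% of all genes tested did. With that library left out, 3 of the 9 genes were called higher with drug in J2 RNA, and with replicate 1 left out 6 were. Which of the 2 libraries is the unusual one cannot be told, and the part of their difference in the result was not tested further.

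The drug effect differed between the kinds of RNA in 7 genes. When the effect in input was subtracted from that in J2 RNA, 6 of the 9 were higher and 1 lower, against 35.7% and 13.9% of all genes. The difference was 2.53 ± 0.41 for HSPA8, 2.41 ± 0.40 for HSP90AA1 and 2.13 ± 0.29 for HSPH1, all on the log2 scale. It was 1.87 ± 0.32 for HSPD1, 1.06 ± 0.11 for HSPA9 and 0.95 ± 0.24 for HSP90B1. The exception in sign was HSP90AB1, with -0.59 ± 0.16. These had edgeR adjusted p from 0.000105 to 0.0133. HSPA4 (0.27 ± 0.18) and HSPA5 (0.22 ± 0.19) missed the threshold, and with median-of-ratios scaling both turned to negative values, -0.08 and -0.12. The call for HSP90AB1 was lost without replicate 2 of input vehicle, input drug or J2 vehicle, with adjusted p from 0.052 to 0.056. That for HSP90B1 was lost without input drug replicate 1 (0.053).

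With vehicle, chaperone mRNAs were scarcer in J2 RNA than in input. None of the 9 genes was higher and 8 were lower, where 16.4% of all genes were higher and 44.2% lower. HSP90AA1 had 10.4 and 10.6 RPM in input and 2.87 and 2.11 RPM in J2 RNA, a log2 difference of -2.08 ± 0.30 (edgeR adjusted p = 0.000365). HSP90B1 had 106 and 107 RPM against 31.3 and 29.5 RPM (-1.81 ± 0.17, edgeR adjusted p = 7.9e-05). HSPH1 (-1.77 ± 0.20), HSPD1 (-1.62 ± 0.23), HSPA8 (-1.28 ± 0.29), HSPA5 (-1.13 ± 0.14) and HSPA9 (-0.83 ± 0.08) were lower with edgeR adjusted p of at most 0.00372. HSPA4, at -0.35 ± 0.13 (edgeR adjusted p = 0.0342), lay near the median of all genes, -0.28, and stood at 0.03 with median-of-ratios scaling. Its call was lost without any one of the input libraries or of the J2 vehicle libraries, with adjusted p from 0.053 to 0.163. HSP90AB1 did not pass, at 0.08 ± 0.11 (edgeR adjusted p = 0.554). With TMM scaling it was called higher, by 0.34, and with median-of-ratios scaling by 0.46. These scalings moved the median of all genes to -0.02 and 0.10, and the calls over all genes to 2523 higher and 2679 lower, and 3054 higher and 2277 lower. With drug, 3 of the 9 were lower and 2 higher in J2 RNA than in input. Of all genes tested, 27.3% were lower and 28.1% higher there. The genes called lower were HSPA5 (-0.91 ± 0.14), HSP90B1 (-0.86 ± 0.17) and HSP90AB1 (-0.50 ± 0.11), and those called higher were HSPA8 (1.25 ± 0.29) and HSPA9 (0.23 ± 0.08). The counts with vehicle and with drug compare separate libraries, but all 8 libraries were fitted together with a shared estimate of the spread. The call for HSPA9 was lost without any one of the libraries other than J2 drug replicate 1. Without J2 drug replicate 2 its value was 0.09. Without replicate 1 of that group 5 genes were higher.

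Chaperone genes kept few intronic reads with drug, HSPA9 aside. The share of intronic reads in a gene's intronic and spliced reads had a median of 0.78% over the 9 genes in input with drug, where the median of all genes was 11.4%. In J2 RNA with vehicle all 9 genes lay below the median of all genes, and in each other group 8 did. In input with vehicle the gene above it was HSPA8, with 4.43% ± 0.07 against a median of 3.27%, resting on 6 and 9 intronic reads. In both groups with drug it was HSPA9, whose share rose from 1.22% ± 0.38 to 25.4% ± 0.2 in input RNA and from 1.68% ± 0.15 to 28.3% ± 3.2 in J2 RNA. With HSPA9 set aside, the other 8 genes together had 0.48% ± 0.04 with vehicle and 1.01% ± 0.03 with drug in input, and 0.29% ± 0.07 and 1.06% ± 0.05 in J2 RNA. HSPA9 gave 76.2% of the intronic reads of the chaperone genes in input with drug.

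HSPA9 was the only one of the 9 genes with enough intronic reads, at least 1 RPM in 2 libraries, to be tested for them. Of its vehicle libraries only input replicate 1 reached 1 RPM, so it met this limit through the drug libraries. The limit favours genes that rise with drug, also in the shares of all genes given below. HSPA9 had 60 and 41 intronic reads in input with vehicle and 398 and 420 with drug. In J2 RNA it had 46 and 42 with vehicle and 593 and 606 with drug. The log2 change was 3.07 ± 0.18 in input (edgeR adjusted p = 8.46e-19) and 3.86 ± 0.18 in J2 RNA (edgeR adjusted p = 2.88e-22). Of all genes tested, 78.4% and 83.8% were higher, with medians of 1.73 and 2.20, so a rise as such does not set the gene apart. Scaled by TMM on intronic reads, the medians became 0.07 and 0.03 and the changes in HSPA9 1.41 and 1.68. Its ratio of intronic to spliced reads changed by 4.79 ± 0.24 in input and 4.49 ± 0.24 in J2 RNA on the log2 scale (limma adjusted p = 7.87e-07 and 7.02e-07). Here 83.8% and 83.1% of all genes rose, with medians of 2.30 and 2.44. Between J2 and input RNA with drug, HSPA9 intronic reads were higher by 0.44 ± 0.14 (edgeR adjusted p = 0.00909). The call was lost without any one of the 4 libraries compared, with values from 0.41 to 0.46. With vehicle the difference was -0.35 ± 0.24 (edgeR adjusted p = 0.257). Once the introns that contain other annotated genes were left out, intronic reads were called lower in J2 RNA in both cases. The difference was then -0.70 with drug (edgeR adjusted p = 0.0433) and -1.28 with vehicle (edgeR adjusted p = 0.0236).

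Of 16 introns, 3 held 93.9% of the HSPA9 intronic reads in input with drug. In intron 10 the intronic reads were 22 and 21 with vehicle and 244 and 223 with drug, beside 393 and 426 and then 112 and 172 spliced reads. Its intronic share rose from 5.0% ± 0.43 to 62.5% ± 8.5, and in J2 RNA from 5.98% ± 0.72 to 82.9% ± 0.1. In intron 11 the share rose from 4.27% ± 0.30 to 83.0% ± 1.3 in input, and from 3.80% ± 0.41 to 48.2% ± 16.2 in J2 RNA. In intron 14 it rose from 7.82% ± 6.72 to 66.8% ± 4.6 in input and from 5.39% ± 3.06 to 36.5% ± 5.5 in J2 RNA. Intron 10 thus had a higher share in J2 than in input RNA with drug, and introns 11 and 14 a lower one. All 3 rises in the ratio passed limma's test in both kinds of RNA, with log2 changes of 4.93, 6.49 and 4.73 in input and 6.21, 4.0 and 3.04 in J2 RNA. Without these 3 introns, the other 13 had a share of 0.29% ± 0.05 with vehicle and 2.41% ± 0.37 with drug in input, and 0.38% ± 0.18 and 0.88% ± 0.25 in J2 RNA. Intron 10 holds the small nucleolar RNA gene SNORD63 and intron 11 another annotated small nucleolar RNA, both on the strand of HSPA9. Reads of such an RNA and of the intron around it cannot be told apart in these counts. Intron 14 holds no other annotated gene. Its share rose by 59.0 percentage points in input RNA, beside 57.5 for intron 10 and 78.7 for intron 11.

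**Figure D3:**
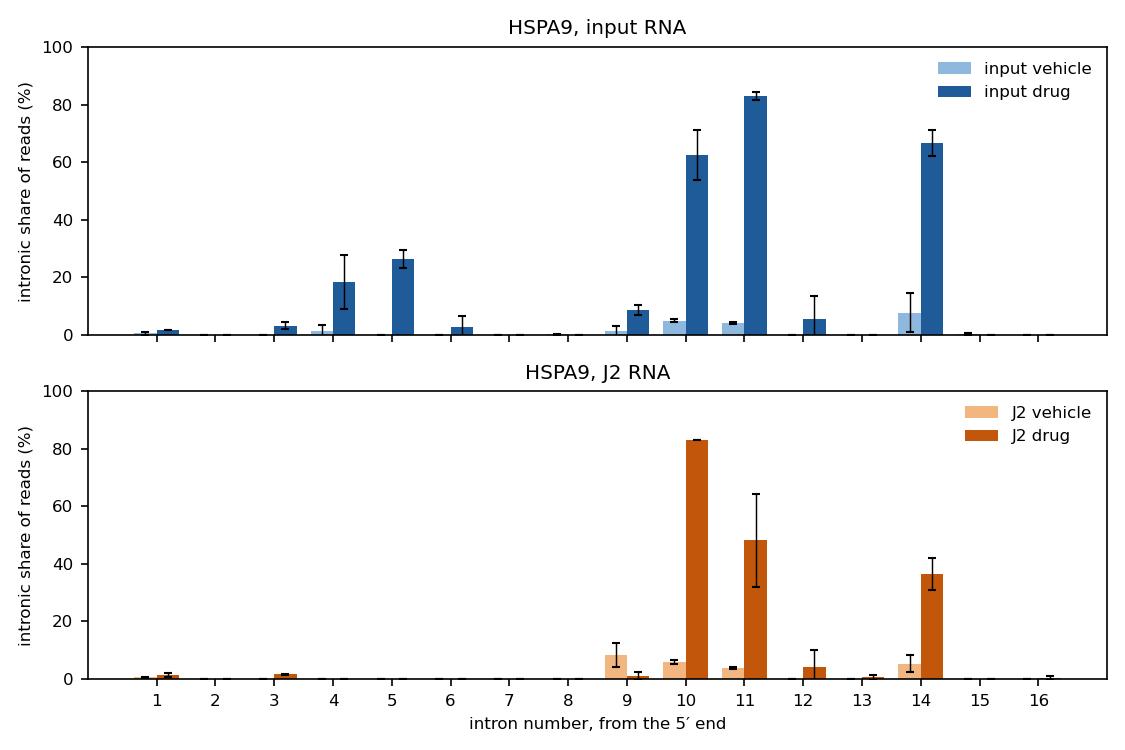
Intronic share of the reads of each HSPA9 intron (vertical axis, percent of intronic plus spliced reads, bars with SD of 2 libraries) against intron number, for input RNA above and J2 RNA below. With drug, introns 10, 11 and 14 reach 62.5%, 83.0% and 66.8% in input RNA, and most other introns stay near 0.

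Elsewhere intronic reads were confined to few introns. No intronic read was counted in any library for 42 of the 103 introns, and 12 introns had at least 20 over the 8 libraries. This limit counts the reads with drug too, so it favours introns that gain them, here and among all introns. Of these 12, 8 rose in their ratio with drug in input RNA and none fell, where 60.8% of all introns under the same filter rose. In J2 RNA 5 rose and 1 fell, where 60.9% rose. In HSP90AA1, intron 10 (chr14:102082445-102083033) went from 9.49% ± 2.54 to 43.8% ± 5.4 intronic in input. This rested on 7 and 6 against 20 and 26 intronic reads (2.75 ± 0.52, limma adjusted p = 0.0061). In J2 RNA it went from 0 to 10.3% ± 4.5 and did not pass (1.22, limma adjusted p = 0.0965). Intron 11 of that gene had no intronic read with vehicle, and 2 and 2 in input and 11 and 19 in J2 RNA with drug. Its share reached 11.7% ± 3.7 and 29.2% ± 1.8, and both rises passed (limma adjusted p = 0.00268 and 0.0147). In J2 RNA, HSPD1 intron 3 (chr2:197495377-197497139) went from 0 to 7.98% ± 8.56 and did not pass (0.42, limma adjusted p = 0.786). In input it went from 2.88% ± 4.08 to 39.8% ± 5.2, with 6 and 0 against 17 and 20 intronic reads (4.82 ± 1.16, limma adjusted p = 0.0151). The call for this intron was lost without input vehicle replicate 2 (adjusted p = 0.068) and without input drug replicate 1 (0.06) or 2 (0.075). HSPD1 intron 7 went from 12.3% ± 2.7 to 38.1% ± 0.5 in input and from 26.8% ± 12.6 to 7.97% ± 0.72 in J2 RNA, and both changes passed limma's test (2.10, adjusted p = 0.0121, and -1.96, adjusted p = 0.015). Its intronic reads were 10 and 19 with vehicle and 20 and 10 with drug in input, and 10 and 5 against 5 and 10 in J2 RNA. Its spliced reads went from 86 and 115 to 33 and 16 in input and from 18 and 23 to 62 and 108 in J2 RNA, so the share moved with the spliced reads. It was the 1 intron lower in J2 RNA. Intron 11 of HSPA4 (chr5:133089696-133091192) rested on 8 intronic reads in all, and in HSPA5, HSP90AB1 and HSP90B1 the intron with the greatest rise reached 1.52%, 2.91% and 5.07%. In HSPA8 and HSPH1 no intron tested showed a rise of its share in input RNA. Only 3 of 6 listed introns of HSPA8 and 1 of 11 of HSPH1 had enough reads to be tested.

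The same ratio over all 86 introns with a mean of at least 20 reads has to be read with care. It rose with drug in input RNA in 40 of the 86 and fell in 1, against 40.7% and 2.76% of 45220 introns. In J2 RNA it rose in 7 and fell in 22, against 39.9% and 6.24%. Of the 40 rises, 32 were in introns with under 20 intronic reads over the 8 libraries and 16 in introns with none at all, as were 21 of the 22 falls with under 20. In the 16 with none, the ratio moved through the spliced reads alone. Some of the others gained a few intronic reads in input with drug. HSPA9 intron 5 went from 0 and 0 to 7 and 8, and HSPA5 intron 2 from 0 and 0 to 5 and 8. The intron called lower in input, HSP90AB1 intron 9, had 1 intronic read in all. For the difference between the drug effects in the 2 kinds of RNA, 0 of the 86 introns passed limma's adjusted threshold, as did 0 of all 45220. An unadjusted p under 0.05 was found in 48 of the 86 and in 19.6% of all introns.

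Spliced reads were therefore also compared intron by intron, a comparison added after the data were seen. In input RNA, 60 of 86 introns fell with drug and 7 rose, against 49.3% and 18.0% of 42597 introns. In J2 RNA 49 rose and 18 fell, against 25.4% and 44.2%. In J2 RNA with vehicle 72 of the 86 were lower than in input, against 31.6% of all introns. Within a gene the introns did not move together. In HSP90B1 the change with drug in input ran from -0.14 at intron 1, with 1620 and 1864 spliced reads with vehicle and 1437 and 1589 with drug, to -2.58 at intron 12, with 216 and 242 against 39 and 34. Introns 13 and 14 of the same transcript, at -0.44 and -0.19, changed little beside their neighbours 12 and 15, at -2.58 and -1.81. Introns with low counts in input with drug were also low in J2 RNA with vehicle. Intron 12 had 23 and 30 spliced reads there and 52 and 129 in J2 RNA with drug. In J2 RNA 12 of the 17 introns of HSP90B1 rose with drug and 3 fell, among them intron 1 at -0.45.

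In HSP90AB1 the rise of the summed level came from its 3′ end. Introns 9, 10 and 11, the last of the transcript, rose in input RNA by 1.10, 1.13 and 1.13, and intron 9 had 335 and 378 spliced reads with vehicle and 655 and 814 with drug. Intron 6 fell by 1.49, from 148 and 151 to 48 and 54 reads. Introns 9 and 11 had the most spliced reads of the gene in every group. In HSPA4, introns 1, 12 and 13 rose, by 0.62, 0.85 and 0.88, and 4 of the 14 introns tested fell. In HSPA5 all 7 introns fell, from -0.32 at intron 2 to -2.80 at intron 7. All 16 introns of HSPA9 fell in input, from -1.12 at intron 3 to -3.60 at intron 7. In J2 RNA 3 of these 16 rose and 5 fell, with intron 10 at -2.26. In HSPD1, 8 of 10 introns fell in input RNA and 9 of 10 rose in J2 RNA. Intron 5, the GC intron, had 94 and 103 spliced reads in input with vehicle, 1 and 11 in J2 RNA with vehicle and 56 and 90 in J2 RNA with drug.

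**Figure D4:**
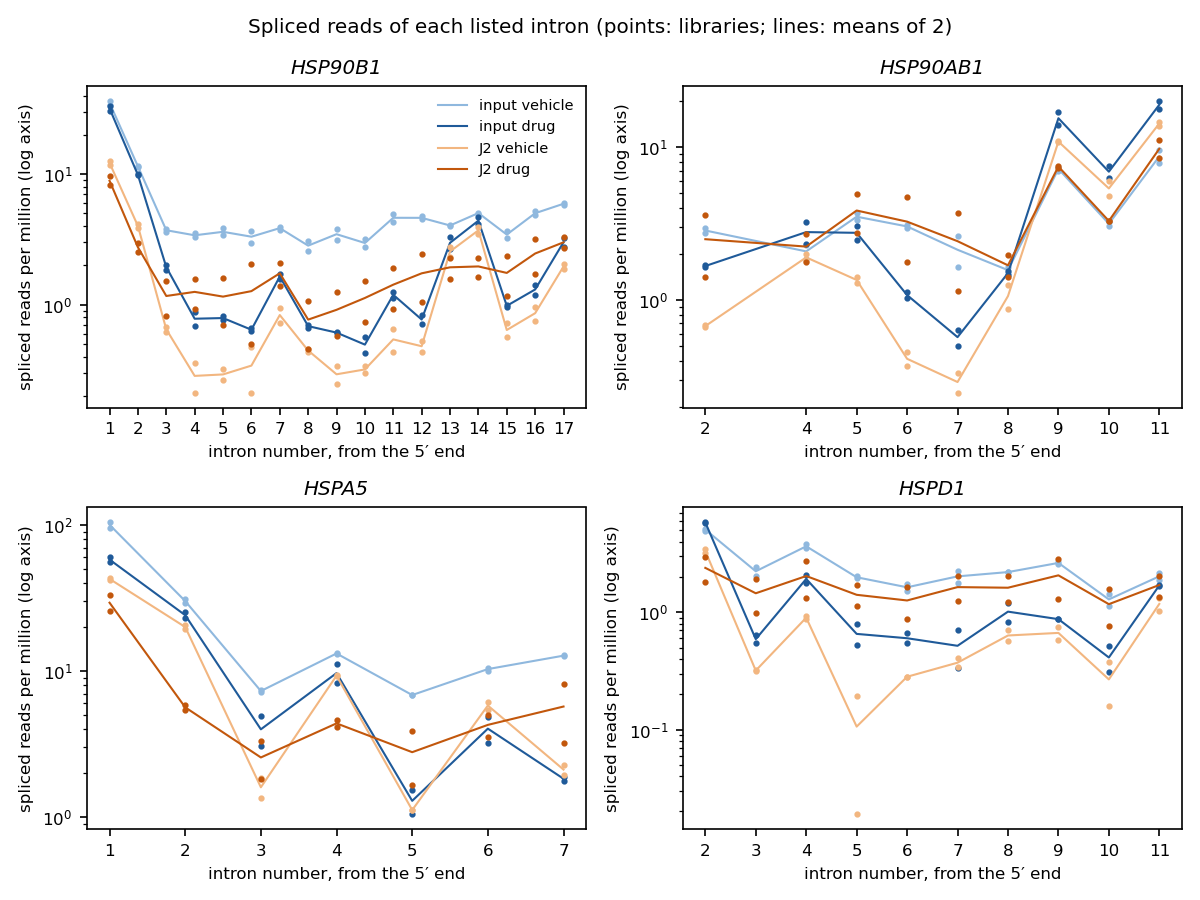
Spliced reads in RPM (vertical log axes) at each listed intron, numbered from the 5′ end, of HSP90B1, HSP90AB1, HSPA5 and HSPD1; points are libraries and lines join the means of 2. Input RNA with drug and J2 RNA with vehicle dip at the same internal introns of HSP90B1, such as intron 12, and dip less at introns 13 and 14.

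The unevenness of these profiles was measured as the standard deviation of log2(spliced reads + 1) over the listed introns of a gene, in 3702 genes with at least 5 introns and a mean of 20 reads. It was described only, without a test, for the 8 chaperone genes that met this limit, HSPH1 being the one that did not. Their median was 0.85 in input with vehicle, 1.65 in input with drug, 1.77 in J2 RNA with vehicle and 0.88 in J2 RNA with drug. The medians of all genes were 0.85, 0.96, 1.01 and 0.90. All 8 were more uneven in input with drug than with vehicle, as were 65.0% of all genes, and all 8 were more uneven in J2 RNA with vehicle than in input with vehicle, as were 70.6%. In J2 RNA with drug 5 of the 8 were more uneven than in input with vehicle, against 62.2% of all genes. HSP90AB1 had 0.84 and 0.81 in the libraries of input with vehicle, 1.64 and 1.79 in input with drug, 2.00 and 1.99 in J2 RNA with vehicle and 1.13 and 0.67 in J2 RNA with drug. HSPD1 was the most even of the 8 in J2 RNA with drug, at 0.35 and 0.33. In J2 RNA with drug, replicate 1 was the more uneven in all 8 genes, and the medians of all genes were 0.99 and 0.81 in its 2 libraries.

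Base composition moved with these profiles. The GC content of the 100 exon bases on each side of an intron had a median of 43.2% over the 86 introns and of 56.0% over all introns tested. Across the 86 introns, Spearman's rho between this GC content and the log2 difference of J2 against input with vehicle was 0.49, and 0.09 over all 41660 introns with a value. For the drug effect in J2 RNA it was -0.54, against -0.22 over all introns. For the drug effect in input it was 0.22, against -0.23. These coefficients run across introns that share libraries and, within a gene, share their transcript and depth, so they describe these libraries. The part of base composition in the gene results was not tested.

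**Figure D5:**
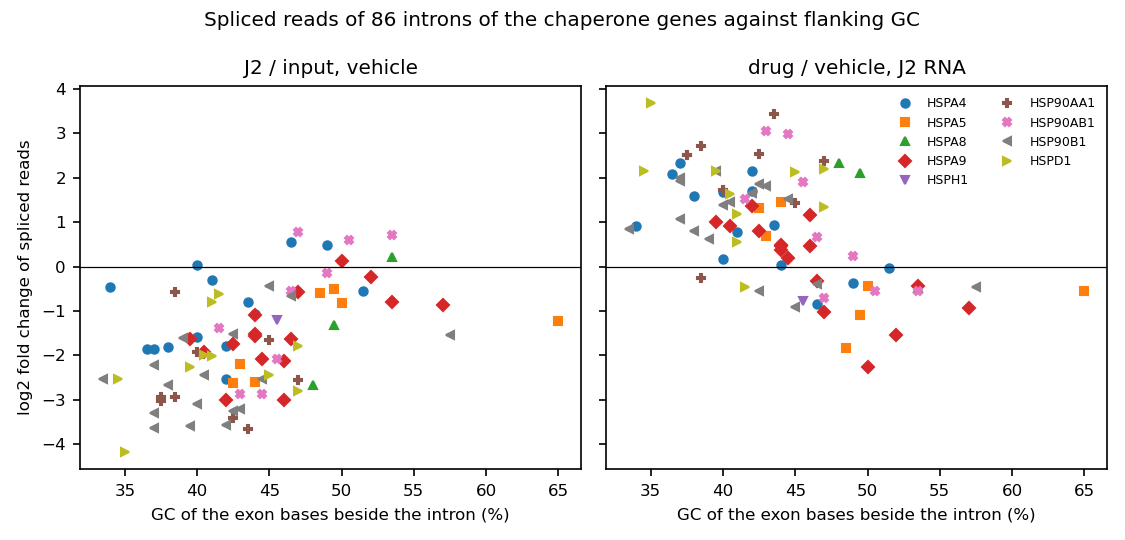
Log2 fold change of spliced reads (vertical axis) against the GC content of the 100 exon bases on each side (horizontal axis, percent) for 86 introns of the chaperone genes, coloured by gene. For J2 against input RNA with vehicle rho was 0.49, and for drug against vehicle in J2 RNA -0.54.

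Promoters were examined because the heat shock factor HSF1 drives several chaperone genes, and because factors of the unfolded protein response act on those of the endoplasmic reticulum. RefSeq promoter windows of GRCh38.p14, from 250 bases before to 50 after the start, were found for all 10 genes. A paired heat shock unit written TTCNNGAA, which reads the same on both strands, lies in 7.76% of 34796 such windows, and occurred in HSP90AA1, HSP90AB1, HSPA8, HSPA9 and HSPD1. The reverse order GAANNTTC lies in 6.79% and overlaps the former where units follow each other. The endoplasmic reticulum stress element, CCAAT and CCACG with 9 bases of any kind between them, searched on both strands, lies in 0.0776% of windows and occurred in HSPA5 and HSP90B1. A few of these stretches are printed on the strand of the gene, to show members that carry the same element, with the element in capitals.
HSP90AA1, chr14:102087105-102087152: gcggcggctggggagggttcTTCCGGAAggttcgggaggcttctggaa
HSPA8, chr11:123062164-123062211: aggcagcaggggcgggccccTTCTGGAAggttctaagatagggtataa
HSP90AB1, chr6:44247811-44247858: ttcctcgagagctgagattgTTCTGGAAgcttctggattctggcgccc
HSPA5, chr9:125241371-125241429: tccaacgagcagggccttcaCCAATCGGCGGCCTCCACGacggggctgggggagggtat
HSP90B1, chr12:103930196-103930254: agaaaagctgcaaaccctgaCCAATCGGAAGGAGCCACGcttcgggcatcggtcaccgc
The 5 genes with the heat shock unit did not move as one. In input RNA 4 of them fell and HSP90AB1 rose, and in J2 RNA HSP90AA1, HSPA8 and HSPD1 rose, HSPA9 fell and HSP90AB1 did not pass. Summed over introns, HSPA5 and HSP90B1 fell by similar amounts in input RNA. In J2 RNA the sum for HSPA5 fell and that for HSP90B1 did not pass. There 12 of 17 introns of HSP90B1 rose and 3 fell, and of 7 in HSPA5 1 rose and 3 fell. Of all introns tested, 25.4% rose and 44.2% fell in J2 RNA. A match of letters is a description and not a site in use.

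Other genes of the chaperone system, 87 in 7 lists, were set beside these. Introns were listed for 76 and spliced reads could be tested in 71. In input RNA 18 rose and 38 fell, against 21.7% and 48.5% of all genes, with a median of -0.37, near the -0.38 of all genes. Among them CCT5, a subunit of the cytosolic chaperonin TRiC, rose by 1.10 ± 0.08, HSPA14, a ribosome-associated HSP70, by 1.96 ± 0.17, and GRPEL1, the exchange factor of mitochondrial HSP70, by 0.68 ± 0.08. STUB1, the ubiquitin ligase CHIP that works with HSP70 and HSP90, fell by 2.50, LONP1, a mitochondrial protease, fell by 1.69, and HYOU1, the exchange factor of HSPA5, fell by 1.56. All 6 had edgeR adjusted p of at most 1.73e-05. Of 14 HSP90 family members and co-chaperones 1 rose and 10 fell, and of 13 TRiC and prefoldin subunits 5 rose and 7 fell. Of 23 HSP70 co-chaperones 8 rose and 11 fell, and of 7 endoplasmic reticulum folding genes 3 rose and 2 fell. None of the 6 heat shock factor and small heat shock protein genes rose and 3 fell, and of 4 mitochondrial protease genes 3 fell.

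In J2 RNA 21 of these 71 genes rose and 37 fell, against 34.6% and 39.4% of all genes, with a median of -0.24. SUGT1, an HSP90 co-chaperone, rose by 1.19 ± 0.10, GRPEL2 by 1.98 ± 0.18 and BAG3, an HSP70 exchange factor induced by stress, by 1.01 ± 0.09. STUB1 fell by 2.22, HYOU1 by 1.76 and MANF, a secreted factor of the endoplasmic reticulum, by 1.81. Of the 71 genes 13 were higher and 31 lower in J2 than in input RNA with vehicle, and 17 higher and 28 lower with drug. The shares of all genes were 16.4% higher and 44.2% lower with vehicle, and 28.1% and 27.3% with drug. With vehicle, CANX, the lectin chaperone calnexin, was lower in J2 RNA by a log2 difference of -1.09 ± 0.09, and STUB1 was higher by 0.91 ± 0.07. The drug effect was higher in J2 than in input RNA in 25 genes and lower in 19, against 35.7% and 13.9% of all genes, with TCP1, another TRiC subunit, at 3.36 ± 0.38 and CCT5 at -1.31 ± 0.11. Intronic reads could be tested in 28 genes of the lists, under the limit of 1 RPM in 2 libraries, which favours genes that rise with drug. Of these, 24 rose and none fell in each kind of RNA. Of all genes tested, 78.4% rose and 6.56% fell in input RNA, and 83.8% rose and 5.66% fell in J2 RNA. The intronic share of LONP1 rose from 3.37% ± 0.13 to 43.7% ± 0.2 in input and that of AHSA1, an activator of HSP90, from 0.84% ± 0.24 to 20.1% ± 0.6. That of STUB1 rose from 2.92% ± 0.52 to 39.5% ± 3.0. HSPA9 was thus not alone in the system, and its share of 25.4% lies between those of AHSA1 and LONP1.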

How the data were processed

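The authors' libraries were aligned with HISAT2 2.0.4, per the submitters' processing notes, which name builds hg38 and mm10 but no counting program or strand setting. Each deposited table lists introns with counts of intronic reads and of intronic plus spliced reads, and RPKM values. The library depths behind the RPKM of the authors were recovered from the deposited values, and spliced reads were taken as the difference of the 2 counts. Of 142224 introns, 18 lacked values. Introns matched to GENCODE 29 after moving the deposited ends inward by 1 base.

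Reads were summed per gene and tested with edgeR 4.0.16 (quasi-likelihood, library size as that depth, at least 1 RPM in 2 libraries), and log2((intronic + 1)/(spliced + 1)) with limma 3.58.1, in 1 fit of 8 libraries, adjusted over all features. DESeq2 1.42.0, TMM and other settings were alternatives. The scripts were tested on simulated data. With 2 libraries a group, an exact permutation test cannot go below p = 0.333. The p-values measure the spread between these samples, which may be technical. Every member was described, and introns were named by the greatest and smallest rise of the intronic share in input RNA. Other introns, some of them printed, were named in addition after their values were seen. In the other lists, genes with the smallest p were named. Members and lists were chosen with earlier results of these data known.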

Additional observations from a re-analysis of the deposited data

Results flagged for a closer look

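The drug effect on spliced reads differed between J2 and input RNA, by edgeR's test of the difference, in 7 of the 9 chaperone genes. It was called higher in J2 RNA for 6 and lower for 1, against 35.7% and 13.9% of all genes. The difference, J2 minus input on the log2 scale, was 2.41 for HSP90AA1, 2.53 for HSPA8, 1.87 for HSPD1 and 2.13 for HSPH1. In these 4 genes summed spliced reads were called lower with drug in input RNA and higher in J2 RNA. For HSPH1 only 1 of 11 listed introns had a mean of at least 20 reads. That intron was called lower in J2 RNA as well (-0.78), and its own difference of 0.17 was not called. The call for HSP90AA1 in input held in 6 of 15 alternative settings and was lost without any one input library, with adjusted p from 0.082 to 0.196. The call for HSPA8 in input was lost without input vehicle replicate 2 or input drug replicate 1. The call for HSPD1 in input was lost without input drug replicate 2 and with median-of-ratios scaling. The call for HSPH1 in J2 RNA was lost without J2 drug replicate 2 (adjusted p = 0.087), without J2 vehicle replicate 2 (0.083) and when fitted on the groups compared alone (0.051). It was 1.06 for HSPA9, which fell in both, and 0.95 for HSP90B1, which fell in input and did not pass in J2 RNA. It was -0.59 for HSP90AB1, which rose in input and did not pass in J2 RNA. For HSPA9 intronic reads the difference was 0.79, against a median of 0.46 over all genes tested, and it was 0.27 and 0.31 with TMM and median-of-ratios scaling. That call was lost without any one of 6 of the 8 libraries, with adjusted p up to 0.319. J2 drug replicate 2 had more spliced reads than replicate 1 in all 9 genes, and the part of this in the differences was not tested beyond leaving each library out.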

How the results depend on the processing

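Results with 2 libraries a group are limited by their number, and counts under 20 reads by depth. With TMM, median-of-ratios scaling or DESeq2, 2 genes were higher with drug in input (with 6, 5 and 6 lower) and 1 in J2 against input with vehicle. Fitted on the groups compared alone, 3 were higher with drug in J2 RNA, and 1 in J2 against input with drug. For the intron ratio, the limit of 20 intronic reads was chosen after the data were seen. It favours introns that gain such reads with drug, and left 8 higher and 0 lower in input and 1 lower in J2 RNA. A pseudocount of 0.5 left 0 lower in input, a mean of 50 reads gave 14 lower in J2 RNA, and a mean of 10 gave 8 lower for the difference of drug effects. For spliced reads per intron, TMM and median-of-ratios scaling gave 14 and 15 higher in input and 11 lower in J2 RNA, and a mean of 50 reads 29 higher in J2 RNA. The cause of these changes was not tested, other than fewer introns under stricter limits.

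HSPA4 turned to 0.0276 in J2 against input with vehicle and to -0.0757 and -0.0758 in the difference of drug effects, and HSPA5 to -0.125 in the latter, with median-of-ratios scaling and DESeq2. HSPA4 turned to 0.0316 with drug without introns that overlap other genes. HSPA9 intronic reads in J2 against input with vehicle were 0.0741 with TMM, 0.10 with median-of-ratios scaling and DESeq2, and -1.28 without such introns. With drug they were 0.41 with DESeq2 and -0.70 without such introns. Both values without such introns were called lower. Their difference of drug effects was 0.27, 0.31 and 0.31 under those 3 and 0.57 without such introns. The HSPA9 ratio in J2 against input was 0.75 with median-of-ratios scaling and -0.15 without such introns with vehicle, and -0.95 without them with drug.

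Leaving out 1 library at a time gave 3 to 6 genes higher with drug in J2 RNA, 1 to 5 higher in J2 against input with drug, and 0 to 1 lower for the difference of effects. For the intron ratio it gave 20 to 48 higher and 0 to 1 lower in input, 4 to 26 lower in J2 RNA and 0 to 14 lower for the difference. Spliced reads per intron gave 3 to 5 higher in J2 against input with vehicle. HSPA9 ranged from 0.41 to 0.46 for intronic reads in J2 against input with drug, from 0.44 to 1.08 for their difference of drug effects, from 0.19 to 0.82 for the ratio in J2 against input with vehicle and from -0.61 to 0.0226 for the difference of its drug effects. Single genes changed sign: HSP90AB1 (-0.18 to 0.18) and HSP90B1 (-0.14 to 0.50) for drug in J2 RNA, HSP90AA1 (-0.23 to 0.72), HSPA4 (-0.33 to 0.12) and HSPD1 (-0.24 to 0.61) in J2 against input with drug, HSPA5 (-0.0465 to 0.44) for the difference, and HSPD1 intron 3 (-0.89 to 1.73) in J2 RNA.

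Replicate numbers are shared by name only: differences between numbers correlated by -0.08 to 0.10 across groups. With the replicate block, 1 gene was higher and 6 lower with drug in input, the call for HSP90AA1 being lost.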
